A study of Mus musculus with 670 samples.

Results

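Col14a1 encodes a collagen found at the surface of collagen fibrils in skin, tendon and other fibrous tissue. Newborn mouse cells in which it was read were compared with newborn cells in which it was not, to describe the fibrous, tendon-like state asked for under that gene. The wells came from long bones of mice at postnatal day 3, labelled male and untreated, and held single cells sorted without culture as skeletal stem cell populations and sequenced by SmartSeq2, a full-length RNA method. They lay on 1 plate, plate 9 of batch 3. The rest of the series is 6 plates of mice of 2 and 24 months, labelled male as well. A cell was used with at least 1000 genes, 50000 gene reads and under 20% mitochondrially encoded reads. Levels are counts per 1000000 gene reads of a cell (CPM). Cells with at least 10 CPM of Col14a1 were called positive, and cells with 0 reads negative. Of 95 newborn wells 68 passed, and 32 of these were positive (47.1%, exact 95% binomial interval 34.8% to 59.6%) and 34 negative (50%, 37.6% to 62.4%). These 66 cells were compared, 27.8% of the passing cells in the series of 670 wells. The other 2 newborn cells held 1 read each, at 0.702 and 0.867 CPM, while the lowest positive cell stood at 12.2 CPM. No label plainly names an animal, and a code in the well titles, M1, is not explained, so the plate was taken as 1 sample. Col14a1 itself chose the cells, and every difference between the classes is a description of these cells, with no test.

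Tendon and ligament are built by fibroblasts that lay down parallel fibrils of type I collagen, with smaller collagens and small leucine-rich proteoglycans on the fibril surface. Cells of this lineage are known in the mouse by the transcription factors Scx and Mkx and by the membrane protein Tnmd. In a newborn long bone, such fibrous cells lie at tendon insertions and in the outer sheath of bone, next to cartilage of the growing ends, which is marked by type II collagen (Col2a1).

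The classes were alike in depth. Gene reads per cell ran from 168338 through a median of 1227510 to 2246140 in positive cells and from 93214 through 1027180 to 2175570 in negative cells. With every cell reduced to 50000 randomly drawn reads, the median cell held 1723 and 1756.5 genes. Positive cells were 18 of 35 passing cells on the left of the plate and 14 of 33 on the right. No wells shared an index pair, no doublet caller was run, and no cell annotation was given. Although every well is labelled male, Xist stood at 10 CPM or more in 6 positive and 11 negative cells, and the summed Y-linked genes Ddx3y, Eif2s3y, Kdm5d and Uty in 4 and 5. Both stood at that level in the same cell in 1 positive and 0 negative cells. The Xist locus overlaps its antisense gene, and strand was not used here. Whether the plate holds cells of more than 1 animal or of both sexes was not tested.

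Col14a1, at chr15:55307750-55520803 in GRCm38.p6, ranged widely among the positive cells. Its lowest, median and highest positive cell stood at 12.2, 733 and 6536 CPM, and the class as a whole at 886 CPM (exact 95% Poisson interval 877 to 896, which covers counting error only, as PCR reads are not independent molecules). The highest cell gave 17.7% of the reads. The median positive cell thus lay far above the limit of 10 CPM that chose the class.

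The markers given with the class were found in a minority of it. Mfap4, a glycoprotein of elastic microfibrils (chr11:61485431-61488900), had reads in 9 of 32 positive cells and 0 of 34 negative cells, and its highest cell stood at 9827 CPM. Kera, the fibril-bound proteoglycan keratocan (chr10:97606879-97613692), had reads in 7 of 32 and 0 of 34, up to 4695 CPM. Tnmd, tenomodulin, a membrane protein of mature tendon cells (chrX:133850980-133865577), had reads in 6 of 32 and 2 of 34, up to 6158 and 195.8 CPM. The median cell of both classes was at 0 for each of the 3. All 3 were found together in 5 positive cells, among them the 3 cells with the highest Col14a1, while 22 of the 32 positive cells held none. The label of a tendon-like state thus does not cover most of the class, and the cells are called by their rule, Col14a1-positive.

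The positive cells fell apart by Col2a1, the main collagen of cartilage. Of the 68 cells, 25 were at 0 or, in 1 cell, at 803 CPM, and the other 43 lay between 15170.2 and 195746 CPM. A limit of 1000 CPM, set after these values were seen, splits them into Col2a1-poor and Col2a1-rich cells. Of the positive cells 16 of 32 were Col2a1-rich (50%, 31.9% to 68.1%), and of the negative cells 26 of 34 (76.5%, 58.8% to 89.3%). Col14a1 was lower in the rich positive cells, with a median of 299 CPM (12.2 to 1383), than in the poor ones, with 1029.9 CPM (132.05 to 6536), and the ranges overlapped. All 9 cells with Mfap4 and all 6 positive cells with Tnmd were Col2a1-poor, as were 6 of the 7 with Kera. The remaining Kera cell held the lowest Col2a1 of the rich cells. Mfap4 was read in 0 of the 43 Col2a1-rich cells, which allows a share of up to 6.98%.

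**Figure D1:**
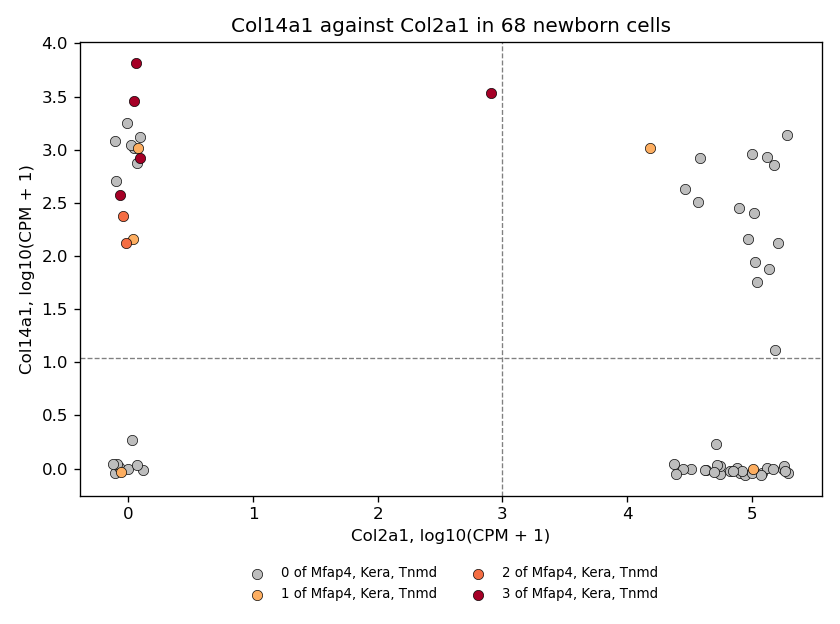
Col14a1 against Col2a1 in each of the 68 passing newborn cells, both as log10(CPM + 1), coloured by how many of Mfap4, Kera and Tnmd had a read; cells at 0 are spread slightly so that they can be seen, and dashed lines mark 10 CPM of Col14a1 and 1000 CPM of Col2a1. The 5 cells with all 3 genes lie on the Col2a1-poor side, and the positive cells divide into 16 on each side.

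Genes were compared between the classes by size. A gene counts as higher or lower where the higher class had at least 10 CPM, the summed levels lay at least 2-fold apart with 1 CPM added, and the share of thinned cells with a read differed by at least 20 percentage points. By this rule 1.88% of 9274 genes were higher in Col14a1-positive cells and 1.39% lower, and the median log2 ratio of all 9274 was -0.10. Within Col2a1-poor cells the shares were larger, with 6.52% of 8112 genes higher and 9.86% lower. Within Col2a1-rich cells 3.42% of 8651 were higher and 2.49% lower. Counts of listed genes called within either part are to be read beside these shares. Such a call gives a size in these cells and no error rate: the rule also made calls in simulated cells without any difference. The 15 named genes furthest above the negative class and the 10 furthest below are given by what their proteins do.

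Insulin-like growth factor genes stood on the positive side. Igfbp6, a secreted protein that binds IGF2, had reads in 15 of 32 positive cells, up to 5035 CPM, and in 0 of 34 negative cells. Its class level was 774 CPM, at least 8885-fold higher than a floor of 3 reads in the whole negative class. That bound holds for the cells used here: with the filter of at least 500 genes alone the log2 ratio of Igfbp6 was 5.77 in place of 9.60. Of its 15 cells, 14 were Col2a1-poor. Igf1, the growth factor itself, followed the same division more sharply. It had reads in 15 of 16 Col2a1-poor positive cells, with a median of 762 and a highest cell of 2171 CPM, in 0 of 16 Col2a1-rich positive cells, in 0 of 8 Col2a1-poor negative cells and in 2 of 26 Col2a1-rich negative cells. Igfbp4, another binding protein, had reads in 20 of 32 positive and 11 of 34 negative cells, with class levels of 596 and 121.95 CPM. Of the 8 genes listed as IGF binding proteins with Igf1, 3 were higher and 0 lower, with a median log2 ratio of 1.93. The median was 3.57 without the highest cell of each class, 4.67 in Col2a1-poor cells with 6 genes higher, and 0.74 in Col2a1-rich cells with 0 higher.

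Other secreted and matrix proteins were read in a part of the positive cells. Egfl6, a matrix protein with EGF-like repeats, had reads in 15 of 32 positive cells, up to 3339.6 CPM, and in 0 of 34 negative cells. Spon2, a secreted matrix protein, had reads in 13 of 32 and 3 of 34, with class levels of 1217 and 163.6 CPM. Ecm1, extracellular matrix protein 1, had reads in 13 of 32 and 2 of 34, with 389.7 and 25.9 CPM. In each of these the lowest cell of both classes was at 0, so the classes overlapped. Nbl1, a secreted antagonist of bone morphogenetic proteins, had reads in 13 of 32 and 2 of 34, and its class level was 46.2 times as high in positive cells. Ssc5d, a soluble scavenger receptor, stood at 222.5 against 20.7 CPM, and Gpc4, a heparan sulphate proteoglycan of the cell surface, at 282.1 against 37.8 CPM. Col4a2, a basement membrane collagen, stood at 239.4 against 37.1 CPM, where 1 cell gave 75.7% of the negative reads. Its log2 ratio of 2.66 fell under the 2-fold limit, to 0.97 with the mean of the cells' CPM and to 0.85 with thinned cells, and stood at 0.73 in Col2a1-poor cells, so that the call did not hold there.

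Other named genes act inside or at the surface of the cell. Tppp3, a tubulin-binding protein known in the mouse from cells of the tendon sheath, had reads in 13 of 32 positive cells, up to 6410 CPM, and in 2 of 34 negative cells, up to 309.7 CPM. Prrx1, a homeobox factor of limb mesenchyme, had reads in 16 of 32 and 4 of 34, with class levels of 71 and 9.76 CPM. Both were therefore read more often on the positive side, though most negative cells and many positive cells were at 0. Rhoj, a small GTPase, stood at 441 against 60.1 CPM, Ifitm3, an interferon-induced membrane protein, at 190.5 against 27.4, S100a6, a calcium-binding protein, at 77.9 against 8.46, and Inpp4a, a phosphoinositide phosphatase, at 93.2 against 13.8. For Inpp4a, 1 cell gave 59% of the positive reads.

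**Figure D2:**
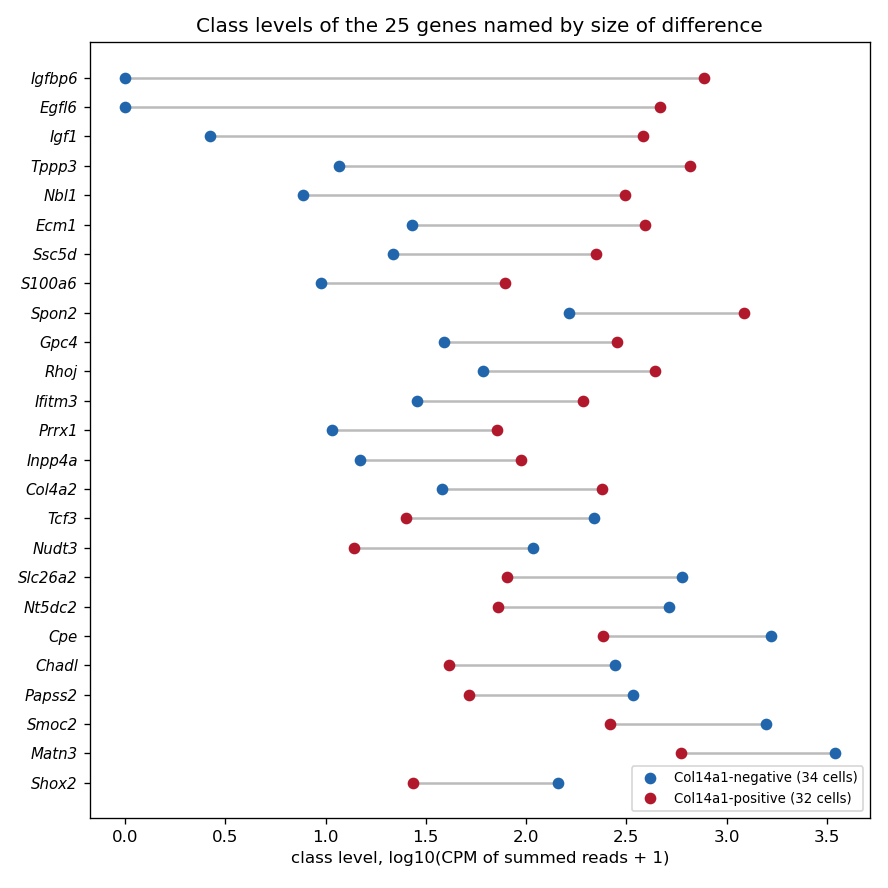
Level of each class, as log10 of the CPM of its summed reads plus 1, for the 15 genes higher and the 10 genes lower in Col14a1-positive cells that the naming rule picked by log2 ratio. Igfbp6 and Egfl6 lie at 0 in the 34 negative cells, while each of the 10 lower genes still has reads in the 32 positive cells.

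Genes lower in positive cells included genes of cartilage matrix. Matn3, a cartilage matrix protein, had reads in 8 of 32 positive cells and 18 of 34 negative cells, with class levels of 593 and 3452 CPM. Slc26a2, the sulphate transporter that cartilage needs for its proteoglycans, had reads in 7 of 32 and 17 of 34, with medians of 0 and 54 and highest cells of 648 and 2765 CPM. Papss2, which makes the sulphate donor, stood at 50.6 against 339 CPM. Both genes that supply sulphate were thus lower over all cells, and for Papss2 and Matn3 all reads came from Col2a1-rich cells. Within those cells neither Papss2 nor Matn3 was called, with log2 ratios of -1.93 and -1.74. Chadl, a leucine-rich protein related to chondroadherin, stood at 40.3 against 275.3 CPM, Smoc2, a matricellular protein, at 261.3 against 1577, and Cpe, a carboxypeptidase that trims prohormones, at 241.3 against 1666. Shox2, a homeobox factor of the proximal limb, stood at 26.4 against 142.8 CPM, and Tcf3, a basic helix-loop-helix factor, at 24.3 against 217.8. Nudt3 stood at 12.8 against 107.5 and Nt5dc2 at 71.4 against 516 CPM. Nt5dc2 was not called within the Col2a1-rich cells. Tcf3, Shox2, Chadl, Cpe and Smoc2 were not called within the Col2a1-poor cells.

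Of 20 cartilage genes, 0 were higher and 10 lower, with a median log2 ratio of -1.31. The share of Col2a1-rich cells moves with this: Cnmd, chondromodulin, an inhibitor of vessel growth, had reads in 15 of 32 positive and 26 of 34 negative cells, but in 15 of 16 and 26 of 26 of the Col2a1-rich ones. Within the Col2a1-rich cells the median of the list was -0.50, and 3 of the 10 were still lower, Matn1, Snorc and Epyc. Matn1, matrilin 1 of immature cartilage, had reads in 2 of 16 rich positive cells and 10 of 26 rich negative cells, with levels of 64 and 1589 CPM. Epyc, a leucine-rich proteoglycan of growth cartilage, had reads in 1 of 16 and 10 of 26. Sox9, the factor that drives cartilage genes, was not among the lower ones, with 669 and 487 CPM in rich positive and rich negative cells.

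Fibre collagens and microfibril genes stood on the positive side. Of 14 fibrous collagens other than Col14a1, 7 were higher and 0 lower, with a median log2 ratio of 1.21. Col1a1, the chain of the main fibril collagen, had lowest, median and highest cells of 0, 25448 and 105857 CPM in the positive class and 0, 904 and 59709.7 in the negative class. Col6a1, a chain of the beaded filaments around cells, had reads in 32 of 32 and 25 of 34 cells, with medians of 5726 and 1904 CPM. For both, the classes overlapped while the positive median was the higher. Col12a1, a related collagen of fibril surfaces, was not among the higher ones, at 1334 against 1419 CPM. Of 18 microfibril and elastic fibre genes, 7 were higher, Mfap4 among them, and 0 lower, with a median of 1.04. The median was 1.69 over genes of at least 50 CPM, 2.13 with at least 2000 genes and 200000 reads per cell and 2.23 without the highest cell of each class. In Col2a1-poor cells it was 1.90, with 8 higher, and in Col2a1-rich cells 0.31, with 2 higher. Mfap5, a partner of fibrillin, had reads in 10 of 32 positive cells, all Col2a1-poor, and 0 of 34 negative cells, up to 3293 CPM, and Fbn1, fibrillin 1, stood at 505 against 27.6 CPM.

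Tendon genes as a list were divided over all cells. Of 14 genes of tendon and ligament matrix, 3 were higher (Kera, Thbs4 and Ptgis) and 1 lower (Chad), with a median log2 ratio of 0.32. In Col2a1-poor cells 5 were higher (Tnmd, Kera, Thbs4, Ptgis and Tgfbi) and 0 lower, with a median of 1.67. Without 2 of the 8 Col2a1-poor negative cells, described below, the same 5 were higher, Tnc was lower and the median was 4.37. In Col2a1-rich cells 0 were called, with a median of 0.26. Over all cells Kera was not called without the highest cell of each class or with the filter of at least 500 genes alone. Thbs4, a thrombospondin of tendon, had reads in 7 of 32 positive and 0 of 34 negative cells, and 1 cell gave 67% of its reads. Fmod, fibromodulin, a fibril-binding proteoglycan shared by tendon and cartilage, stood at 9232 against 10796 CPM, with medians of 7007 and 8966. Comp, a matrix protein of both tissues, stood at 2684 against 5073, and was read in 2 of 16 Col2a1-poor and 16 of 16 Col2a1-rich positive cells. Of 8 tendon transcription factors 0 were higher and 0 lower. Scx, scleraxis, had reads in 5 of 32 positive cells, up to 532 CPM, and 3 of 34 negative cells, up to 369 CPM, and Mkx, mohawk, in 6 of 32 and 0 of 34. The defining tendon factors were therefore at 0 in most positive cells.

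**Figure D3:**
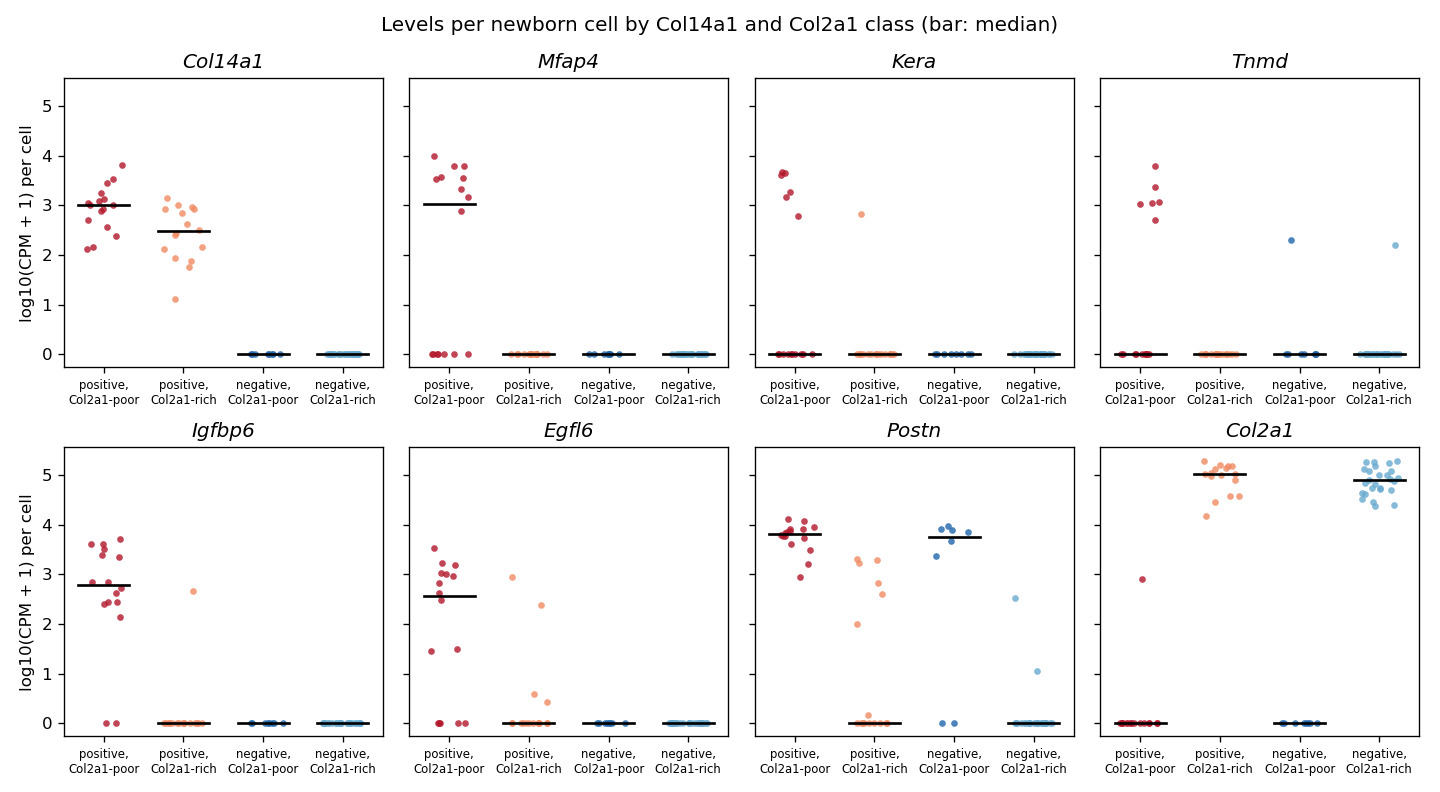
Level of 8 genes in each cell as log10(CPM + 1), with Col14a1-positive and Col14a1-negative cells each divided into Col2a1-poor and Col2a1-rich; each point is a cell and each bar the median of the 16, 16, 8 and 26 cells. Mfap4, Tnmd and Igfbp6 stand in Col2a1-poor positive cells with few exceptions, while Postn has close medians in Col2a1-poor positive and negative cells, 6497 and 5893 CPM.

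Among the Col2a1-poor cells, the 16 positive and 8 negative cells differed in fibroblast and osteoblast genes. By the same rule 529 of 8112 genes (6.52%) were higher and 800 (9.86%) lower in positive cells, and the median log2 ratio of all of them was 0.15. The negative side is thin: 1 cell gave 34.1% of its reads, the median cell held 539236 gene reads against 1373250, and 2 of the 8 held Mki67, a proliferation marker, at 10 CPM or more. Without those 2 cells, an alternative added after seeing the data, 641 (8.17%) were higher and 977 (12.5%) lower. The median of microfibril and elastic fibre genes was then 4.22 in place of 1.90, with 10 higher and 1 lower (Efemp2). The 8 negative cells also held the highest endothelial, Schwann cell and mural marker sums of the negative class, at 3420.3, 7029 and 6535 CPM. Mural markers are those of pericytes and vessel muscle.

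Of 16 fibroblast markers, 6 were higher and 0 lower in Col2a1-poor positive cells. Their median log2 ratio was 7.21, and 8.11 with genes at 0 in a class set to the floor of 3 reads. Of the 12 markers with at least 5 CPM in either class, 8 were at 0 in a class. Both medians thus depend on the added 1 CPM or the floor. Mfap5 and Igfbp6 are counted here and also in the microfibril and IGF lists. Dpt, dermatopontin, which binds collagen fibrils, had reads in 11 of 16 positive and 0 of 8 negative cells, with a positive median of 567 and a highest cell of 4209.5 CPM. Cd34, a surface sialomucin of many fibroblasts and of endothelium, had reads in 8 of 16 and 0 of 8, up to 4177 CPM. Pdgfra, a growth factor receptor of mesenchyme, had reads in 8 of 16 and 0 of 8. With 8 negative cells, 0 cells with a read allows a share of up to 37.5%. Cxcl12, a chemokine, had reads in 11 of 16 and 0 of 8, up to 4840.2 CPM, and Gpc3, a glypican, in 14 of 16 and 4 of 8, with medians of 1379.7 and 0.259 CPM. Fibrous genes were divided. Of the 14 fibrous collagens 4 were higher and 0 lower (Col5a3, Col6a1, Col6a3 and Col8a1), and of the 18 microfibril and elastic fibre genes 8 and 0. Of 12 small leucine-rich proteoglycans 4 were higher and 0 lower (Dcn, Kera, Prelp and Ogn), and Ogn was not called without the 2 Mki67-positive cells. Over all cells 3 of the 12 were higher and 1 lower. In Col2a1-rich cells 0 were higher and 2 lower (Lum and Epyc), while the list's median there was 0.52. Postn, Col1a1 and Aspn, chosen after their values were seen, were not called. Postn, periostin, had medians of 6497 and 5893 CPM, Col1a1 of 47329.8 and 37396, and Aspn, asporin, of 681 and 485.

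Osteoblast genes lay on the negative side of the Col2a1-poor cells. Of 16 listed genes 0 were higher and 4 lower in positive cells, Sp7, Alpl, Bglap2 and Ibsp. Sp7, osterix, the factor required for osteoblasts, had reads in 5 of 8 Col2a1-poor negative cells, with a median of 201.2 and a highest cell of 2277 CPM, in 3 of 26 Col2a1-rich negative cells and in 0 of 32 positive cells. Alpl, tissue-nonspecific alkaline phosphatase, had reads in 5 of 8 Col2a1-poor negative cells and 1 of 16 Col2a1-poor positive cells, up to 10223 and 1867 CPM. In the negative class 1 cell gave 76.9% of these Alpl reads. Bglap2 shares near-identical sequence with Bglap, so its reads cannot be assigned with certainty.

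Among the Col2a1-rich cells, the 16 positive and 26 negative cells differed in fewer of these groups. By the same rule 3.42% of 8651 genes were higher in positive cells and 2.49% lower, with a median log2 ratio of -0.21 over all of them. Fibrous collagens stood on the positive side here, with 5 of 14 higher and a median of 1.00. Col6a1 had medians of 5738 and 2443 CPM, Col6a2 of 2116 and 786, and Col5a1, which sets the width of type I fibrils, of 484 and 0. Each of the 3 was thus higher in the median positive cell, and each still had negative cells within the positive range. Postn had reads in 7 of 16 positive and 2 of 26 negative cells, up to 2058 and 333 CPM. Dpysl3, a cytoskeletal protein best known from neurons, had reads in 7 of 16 and 0 of 26, up to 1189 CPM. Prg4, lubricin of the joint surface, had reads in 12 of 16 and 11 of 26, with medians of 568 and 0 CPM, and Dkk3, a secreted Dickkopf family protein, in 7 of 16 and 1 of 26. Gpc3 went the other way from the Col2a1-poor cells, with reads in 3 of 16 positive and 12 of 26 negative cells and levels of 1.2 and 436 CPM.

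Some genes were called on both sides of Col2a1. Of the genes higher in Col2a1-poor positive cells 39 were also higher in Col2a1-rich positive cells, 7.37% of the first list and 13.2% of the second, and 19 were lower in both, 2.38% and 8.84%. Beside these stand the shares of all genes tested: 3.42% were higher and 2.49% lower in Col2a1-rich cells, and 6.52% and 9.86% in Col2a1-poor cells. The shares of the lower genes thus lay near that background. The 39 count Col14a1 itself and include Col6a1, Col6a3, Ecm1, Ssc5d, Gpc4, Rhoj, Prrx1 and Inpp4a. Slc26a2 and Nudt3 were among the 19. Igf1 and Ifitm3, higher over all cells, were not higher in the Col2a1-rich cells, with 0 against 1.98 CPM and 10.4 against 22.6 CPM.

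**Figure D4:**
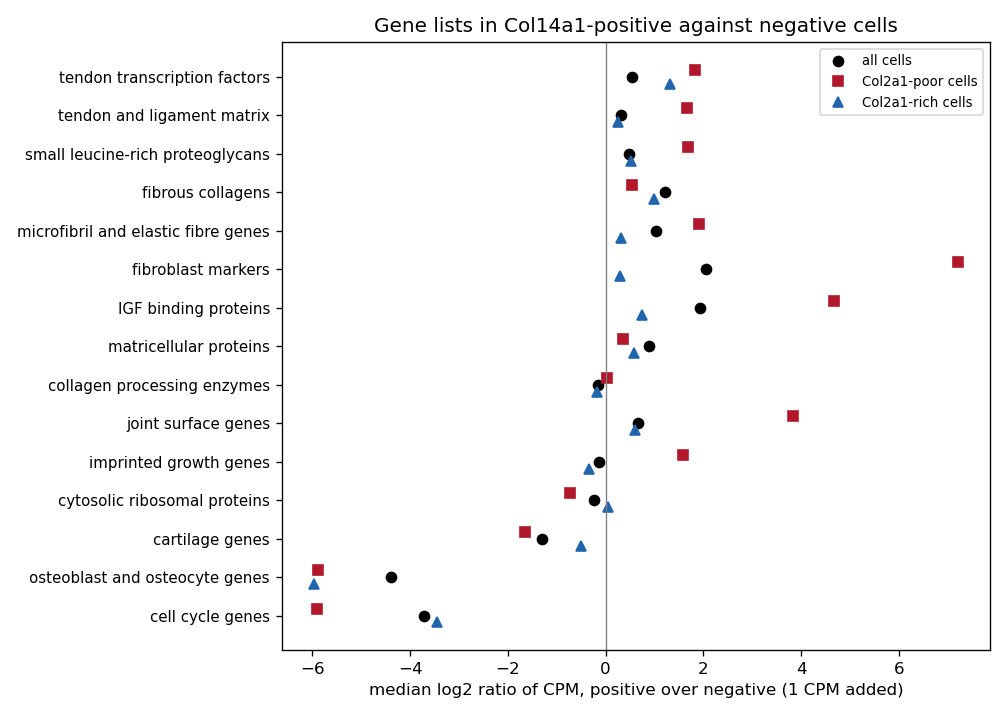
Median log2 ratio of class CPM, positive over negative with 1 CPM added, over the genes of 15 lists with at least 5 CPM in either class, for all cells, for Col2a1-poor cells and for Col2a1-rich cells. Fibroblast markers lie furthest to the positive side in Col2a1-poor cells, at 7.21, and fibrous collagens stand at 1.00 in Col2a1-rich cells.

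Kera, Tnmd, Igfbp6 and Egfl6 were found together in a minority of the Col2a1-poor positive cells. Egfl6 was also read in some Col2a1-rich positive cells, and Tnmd in a few negative cells. The start regions of these 4 genes are shown, 250 bases before to 50 after the RefSeq start in GRCm38.p6. They lie at chr10:97606955-97607254 on the plus strand (Kera), chrX:133850758-133851057 on the plus strand (Tnmd), chr15:102143936-102144235 on the plus strand (Igfbp6) and chrX:166585667-166585966 on the minus strand (Egfl6). The Kera window lies wholly inside the GENCODE gene span given above, which begins at 97606879, so it does not show sequence before that start. Capitals mark CANNTG, the E-box letters that basic helix-loop-helix factors such as Scx and Tcf3 can bind, which read the same pattern on both strands.
Kera: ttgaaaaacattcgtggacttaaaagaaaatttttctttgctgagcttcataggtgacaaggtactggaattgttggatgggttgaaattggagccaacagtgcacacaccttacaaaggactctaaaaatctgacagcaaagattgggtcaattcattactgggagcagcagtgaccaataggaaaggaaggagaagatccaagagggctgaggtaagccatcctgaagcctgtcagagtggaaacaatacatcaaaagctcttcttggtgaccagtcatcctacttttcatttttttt
Tnmd: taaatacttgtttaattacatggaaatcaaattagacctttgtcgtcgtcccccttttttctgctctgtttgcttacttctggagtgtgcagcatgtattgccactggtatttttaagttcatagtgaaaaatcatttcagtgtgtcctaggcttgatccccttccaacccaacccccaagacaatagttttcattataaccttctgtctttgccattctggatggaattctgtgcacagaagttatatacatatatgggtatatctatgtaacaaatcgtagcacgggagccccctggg
Igfbp6: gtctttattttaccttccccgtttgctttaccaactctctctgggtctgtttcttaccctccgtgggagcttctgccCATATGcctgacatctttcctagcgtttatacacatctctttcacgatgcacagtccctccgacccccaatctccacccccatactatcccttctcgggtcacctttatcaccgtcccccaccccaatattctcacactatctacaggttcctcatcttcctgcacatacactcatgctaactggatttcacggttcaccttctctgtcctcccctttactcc
Egfl6: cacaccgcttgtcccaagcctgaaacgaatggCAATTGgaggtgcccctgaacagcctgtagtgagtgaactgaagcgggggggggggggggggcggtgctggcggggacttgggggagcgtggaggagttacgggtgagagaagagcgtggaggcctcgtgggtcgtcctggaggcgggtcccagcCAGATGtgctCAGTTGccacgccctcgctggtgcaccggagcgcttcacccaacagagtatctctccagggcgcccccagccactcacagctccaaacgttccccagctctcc
The letters occur 0 times in the window of Kera, 0 times in that of Tnmd, 1 time in that of Igfbp6 and 3 times in that of Egfl6, and at least once in 72.3% of 32851 such windows. A match is only a run of letters, and its absence says nothing of a factor.

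The genes most like Col14a1 over the 68 cells were taken from 3749 genes with a read in at least 20% of cells, by Spearman correlation of CPM, given without a test because the cells share a plate and much of the correlation follows from the 34 cells at 0. Egfl6 led with 0.63, then Igfbp6 with 0.62, Plac9b and Igf1 with 0.58, Dpysl3 with 0.57, Col6a2 and Gm9780 with 0.55, and Crip1 with 0.53. Within the 32 positive cells the values were lower, from 0.035 for Gm9780 to 0.48 for Igf1, and Igf1, Egfl6 and Crip1 were highest there. Plac9b and Gm9780 may share reads with near-identical copies and are uncertain.

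Markers of muscle, endothelium, blood and Schwann cells were at 0 in the median cell of both classes. The summed level of 10 skeletal muscle markers had its lowest, median and highest cell at 0, 0 and 594 CPM in positive cells and 0, 0 and 687 in negative cells, and that of 8 endothelial markers at 0, 0 and 521 and 0, 0 and 3420.3. For 11 blood cell markers these were 0, 0 and 113.5 and 0, 0 and 388, and for 6 Schwann cell markers 0, 0 and 87.6 and 0, 0 and 7029. In positive cells 7 of the 10, 7 of the 8, 9 of the 11 and 4 of the 6 genes were at 0. Of 8 mural cell markers, the genes of pericytes and vessel muscle, the summed level was 0, 62 and 2014 CPM in positive cells and 0, 191.48 and 6535 in negative cells. Most of this was Cspg4, a surface proteoglycan, with reads in 24 of 32 positive and 27 of 34 negative cells and class levels of 311 and 531 CPM, whereas Myh11 and Cnn1, contractile proteins of smooth muscle, were each read in 1 negative cell alone. None of these lists had a gene called in either direction. Their part in the results was not tested.

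At the other ages Col14a1 was close to absent. At 2 months 2 passing cells, 1.30% of them, held 1 read each, on plates 3 and 4, and no cell reached 10 CPM. At 24 months 0 of 15 cells held a read, which allows a share of up to 20%. Mfap4 had 2 reads in 2 cells at 2 months, Kera 20 reads in 2 cells and Tnmd 546 reads in 3 cells, 544 of them in 1 cell, and all 3 were at 0 at 24 months. The 27 newborn wells that did not pass held 0 reads of Col14a1, with a median of 2506 gene reads. Age and plate cannot be told apart, since all newborn cells lie on 1 plate.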

How the data were processed

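Single cells from mouse long bones were sequenced by SmartSeq2. The deposited values are expected counts, which the authors estimated with RSEM for each gene symbol. Per the submitters' processing notes, bcl2fastq 2.18, STAR 2.4 and RSEM 1.2.21 were used with GRCm38.p6. The annotation release is not given in the sources used here. Of the values above 0, 15.1% are not whole, so all were rounded first. Spike-in rows were left out of totals, and 1 column without a matching sample was set aside.

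CPM was taken over a cell's gene reads, and a class level is its summed reads over its summed total. Ratios are log2 with 1 CPM added. An age is 1 sample, since no label names animals, so no test was made. Poisson and binomial intervals (95%, exact) cover counting error only. A gene at 0 in a class was set against a floor of 3 reads over the class. The named genes are the 4 given markers, the 15 highest and 10 lowest log2 ratios among called genes with at least 50 CPM and a thinned share of 40% in the higher class, members of each list by level, and the 8 genes most correlated with Col14a1. Pseudogenes, ribosomal protein genes and unnamed loci were left out, and other list members were chosen after their values were seen. The members and the gene lists were chosen with earlier results of these data known. The comparison was checked on simulated data, where the rule recovered most genes made different but also called genes when none differed. The genes made different were drawn only from genes read in most cells, after a wider draw recovered fewer. They were raised in a class and switched off in part of the cells of the other. The check therefore does not cover genes read in few cells, as many named here are. Alternatives covered the cell filter, the Col14a1 limit, scaling (with TMM factors from edgeR 4.0.16 in R 4.3.3), thinning, rounding, the added CPM and the highest cell of each gene. Promoter sequences are from RefSeq, and gene coordinates from GENCODE annotation. Software was pandas 2.3.3, numpy 2.4.6 and scipy 1.17.1 in Python 3.11.15, with matplotlib 3.10.9.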

Additional observations from a re-analysis of the deposited data

How the results depend on the processing

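Counts of genes higher and lower in positive cells moved by over 1.5 times under a few settings. With a filter of at least 500 genes alone, 85 genes were lower. With at least 2000 genes and 200000 reads, 21 negative cells were left, and 280 genes were higher and 319 lower. Without the limit on the share of cells with a read, 2417 were higher and 2562 lower, so that limit sets most of the count. In Col2a1-poor cells alone, a division added after seeing the data, the median log2 ratio of tendon and ligament matrix was 1.67. It was 4.37 there without the 2 Mki67-positive negative cells. In Col2a1-rich cells alone the median of cartilage genes was -0.50. Under the other settings these counts and both medians stayed within 1.5 times.

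Of the named genes, directions turned only in that division: in Col2a1-poor cells the log2 ratio of Cpe was 0.21 and that of Smoc2 0.10, and in Col2a1-rich cells that of Igf1 was -1.58, that of Ifitm3 -1.05 and that of Tnmd -1.95. Medians of some lists turned over all cells too. That of endothelial markers, -0.44 over 2 genes, was 5.13 with at least 2000 genes and 200000 reads and 0.080 with 10 CPM added. That of periosteal and contractile genes, -0.42, was 0.26 with that stricter filter and 0.31 without the highest cell of each class. That of skeletal stem cell surface genes, 0.69, was -0.13 over genes of at least 50 CPM and -0.26 without the highest cell. That of tendon transcription factors, 0.53, was -0.30 over genes of at least 50 CPM and -0.24 without the highest cell of each class. That of collagen processing enzymes, -0.15, was 0.0054 with positive cells taken at 100 CPM. That of imprinted growth genes, -0.14, was 0.12 with the mean of the cells' CPM and 0.075 with thinned cells. In Col2a1-poor cells the imprinted median was 1.59, with 7 of 12 genes higher and 0 lower, beside 6.52% of all genes higher. In Col2a1-rich cells it was -0.33, with 0 higher and 1 lower (Gpc3). Skeletal muscle markers, at 1.01 over 2 genes, turned to -3.65 with the mean of the cells' CPM, to -3.61 with thinned cells and to -4.21 in Col2a1-poor cells. Schwann cell markers, at -3.11 over 2 genes, turned to 2.92 with at least 2000 genes and 200000 reads and to 3.45 in Col2a1-rich cells, where marrow stroma and adipocyte genes turned from 1.74 to -4.34. The cause was not tested.

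Of 429 values of the named genes over all cells under the other settings, 415 kept their call and 14 lost it, those of Kera, Col4a2, Crip1, Shox2 and Smoc2 under 2 settings each and those of Gm9780, Nt5dc2, Papss2 and Tcf3 under 1. Tnmd, not called over all cells, counts among the 415. Beside Cpe, Smoc2, Igf1 and Ifitm3, which turned, 9 named genes lost their call in Col2a1-poor cells and 11 in Col2a1-rich cells. Dpysl3, Col6a2 and Crip1 were among the 9, and Egfl6, Tppp3, Nbl1, Spon2 and S100a6 among the 11. No paired analysis was possible because both classes are cells of 1 plate and carry no replicate numbers.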
